A study of Mus musculus with 11 samples.

Results

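Ribosomal protein genes encode the protein parts of the cytosolic ribosome, and this account follows them through sorted cells of the mouse duodenum. Members were protein-coding genes of the deposited count table whose symbols begin with Rpl, Rps, Rplp or Rpsa, without the Rps6k kinases and the symbols that mark pseudogenes, with at least 15 counts over the 11 libraries. The rule found 82 genes of 38283. Of these, 31 encode small-subunit proteins, 42 large-subunit proteins and 3 proteins of the large subunit's stalk. A further 5 are paralogs of another member (Rpl22l1, Rpl36al, Rpl7l1, Rps27l and Rps27rt). The remaining member, Rps19bp1, fits the rule by its symbol only, since its product binds the RPS19 protein and is not a ribosome subunit. Rpl3l, Rpl10l and Rpl39l matched by symbol but are listed at 0 counts, and the lowest member above the threshold was Rps19bp1 with 178 counts. The other members ranged up to 31430 counts, with a median over all of 5384.5.

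The study sorted digested duodenal epithelium of 2 mouse strains by a fluorescent reporter and sequenced RNA from positive cells and from a similar number of negative cells. In the strain Neurod1-cre-eYFP, Cre from the gene of the endocrine factor NeuroD1 turns on a yellow fluorescent protein, and that mark is inherited by later cells. In the strain GluVenus, the proglucagon promoter drives the fluorescent protein Venus, so positive cells are a narrower endocrine population. Negative cells come from the same reporter mice and carry the same alleles, and the labels give no treatment and no age. The NeuroD1 strain gave 3 positive and 3 negative libraries, and the Glu strain gave 3 positive and 2 negative ones. Whether library numbers stand for different animals is not said in the labels, so each p-value reflects only how far these libraries vary, which may be technical.

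A ribosome holds a single copy of nearly every ribosomal protein, and cells make these proteins in large and matched amounts. Their mRNAs are known for a run of pyrimidines at the very start of the message (the 5′ terminal oligopyrimidine tract), through which growth signals acting by way of mTOR and LARP1 set how strongly they are translated. Intestinal epithelium renews quickly, and its dividing crypt cells are rich in ribosomes, while enteroendocrine cells are rare hormone-secreting cells that have left the cycle. In bulk libraries, fewer cells of a type and less RNA per cell cannot be told apart.

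Libraries held 2279594 to 5722372 counts. Mitochondrial ribosomal RNA (mt-Rnr1 and mt-Rnr2) took 27.5% to 33.9% of the counts of 5 NeuroD1 libraries and is listed at 0 in NeuroD1_negative_6360 and in all 5 Glu libraries. Values that were not whole numbers occurred 356 to 488 times in each NeuroD1 library and 0 to 2 times in each Glu library, so a difference in counting and a difference between strains cannot be told apart. All 7 enteroendocrine markers (Chga, Chgb, Scg2, Neurod1, Pcsk1, Gcg, Cck) were higher in positive cells of both strains, with summed levels of 83912 to 135717 CPM, the count scaled to library size in NeuroD1-positive and 46050 to 105039 CPM in Glu-positive libraries against 2993 to 5201 CPM in the negative ones. Positive libraries were not free of other cells: 10 immune markers summed to 16.9 to 70.1 CPM in NeuroD1-positive and 330 to 1978 CPM in Glu-positive libraries, against 369 to 620 CPM and 1254 to 1408 CPM in the respective negatives, with no marker at 0 throughout. In positive against negative cells, 7 enterocyte markers summed to 2628 to 3376 against 3021 to 8880 CPM in the NeuroD1 strain and, the other way, to 3299 to 4033 against 1980 to 2529 CPM in the Glu strain. Gene by gene, the test used below called 6 lower and 0 higher in NeuroD1-positive cells. In Glu-positive cells it called 3 lower and 1 higher, so the higher sum there goes against most called markers. Over all genes, 7.61% were called lower and 6.57% higher in the NeuroD1 strain, and 2.41% and 4.22% in the Glu strain. For 6 crypt and proliferation markers the sums were 301 to 438 against 567 to 834 CPM in the NeuroD1 strain and 454 to 1018 against 515 to 524 CPM in the Glu strain. Paneth, tuft, and stromal and endothelial marker sums were lower in all NeuroD1-positive than in all NeuroD1-negative libraries, and goblet sums overlapped in both strains. The goblet sum hides opposite changes in the NeuroD1 strain, where 2 of its 5 markers were called higher and 3 lower in positive cells. In the Glu strain 0 goblet markers were called. The part of these other cells in the results for ribosomal protein genes was not tested.

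The starts of 6 members are shown first because the pyrimidine run is the feature that this family is best known for. Each line gives the bases from 40 before to 20 after the annotated transcription start of RefSeq on GRCm38.p6, and capitals mark the longest run of C or T of at least 7 bases that lies from 10 bases before to 20 after that start. Rps10, Rpl12 and Rpl22l1 passed a test below, Rpl35 had the lowest fitted change between Glu-positive and Glu-negative cells, and Rpl41 and Rpl4 were among the most abundant members per length.

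Rps10 (chr17:27635225-27635284, minus strand): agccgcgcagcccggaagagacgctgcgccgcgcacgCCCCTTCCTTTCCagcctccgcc

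Rpl12 (chr2:32961672-32961731, plus strand): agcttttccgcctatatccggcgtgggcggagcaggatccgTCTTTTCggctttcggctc

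Rpl22l1 (chr3:28805468-28805527, plus strand): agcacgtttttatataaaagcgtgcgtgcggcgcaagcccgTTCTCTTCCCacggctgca

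Rpl35 (chr2:39005112-39005171, minus strand): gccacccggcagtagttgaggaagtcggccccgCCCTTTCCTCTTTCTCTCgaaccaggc

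Rpl41 (chr10:128549149-128549208, minus strand): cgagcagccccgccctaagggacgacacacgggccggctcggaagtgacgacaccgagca

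Rpl4 (chr9:64173347-64173406, plus strand): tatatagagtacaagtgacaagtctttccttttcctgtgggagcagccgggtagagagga

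The run was 13 bases long in Rps10, 7 in Rpl12, 10 in Rpl22l1 and 18 in Rpl35, and the longest in Rpl41 was 3. Rpl4 has a run of 14 bases that begins 18 bases before the start, of which only 6 lie inside the stretch, so it carries no capitals. RefSeq windows were found for 62 of the 82 members, with 73 annotated starts, and 20 members had none. A run of at least 7 stood in 45.2% of the member windows and in 17.8% of 21263 windows of protein-coding genes. With runs that reach into the stretch counted at full length, the shares were 53.4% and 24.2%. CCGGAAG, read on both strands from 250 before to 50 after the start, stood in 35.6% of member windows against 11.6% of all, AAGATGG in 16.4% against 6.24%, and TATAAA in 9.59% against 12.6%. These letters are a description and no test of binding. The 32 members with a run inside the stretch had a median change between Glu-positive and Glu-negative cells of -0.38 on the log2 scale. The 30 without such a run had -0.49. Some of these 30, such as Rpl4, have a run of at least 7 that lies only partly inside the stretch.

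Per kilobase of transcript, members spanned a wide range of levels. Means of the 4 group means ran from 4.53 CPM per kilobase for Rps19bp1 to 710 for Rpl41, whose product is the smallest large-subunit protein, with a median of 164. Rpl41 was followed by Rpl32 (558), Rpl4 (449), Rps29 (427), Rplp2 (393) and Rpl31 (393). Apart from Rps19bp1, the lowest members were Rps27l (45.8), Rps19 (45.3), Rpl35 (34.3), Rpl22l1 (30.1) and Rpl7l1 (9.70). These levels depend on the transcript taken for the length: with the union of all exons the order at the top became Rpl4, Rpl41, Rpl32, Rps29, Rps15 and Rps4x. The plot of levels per kilobase shows 80 members.

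**Figure D1:**
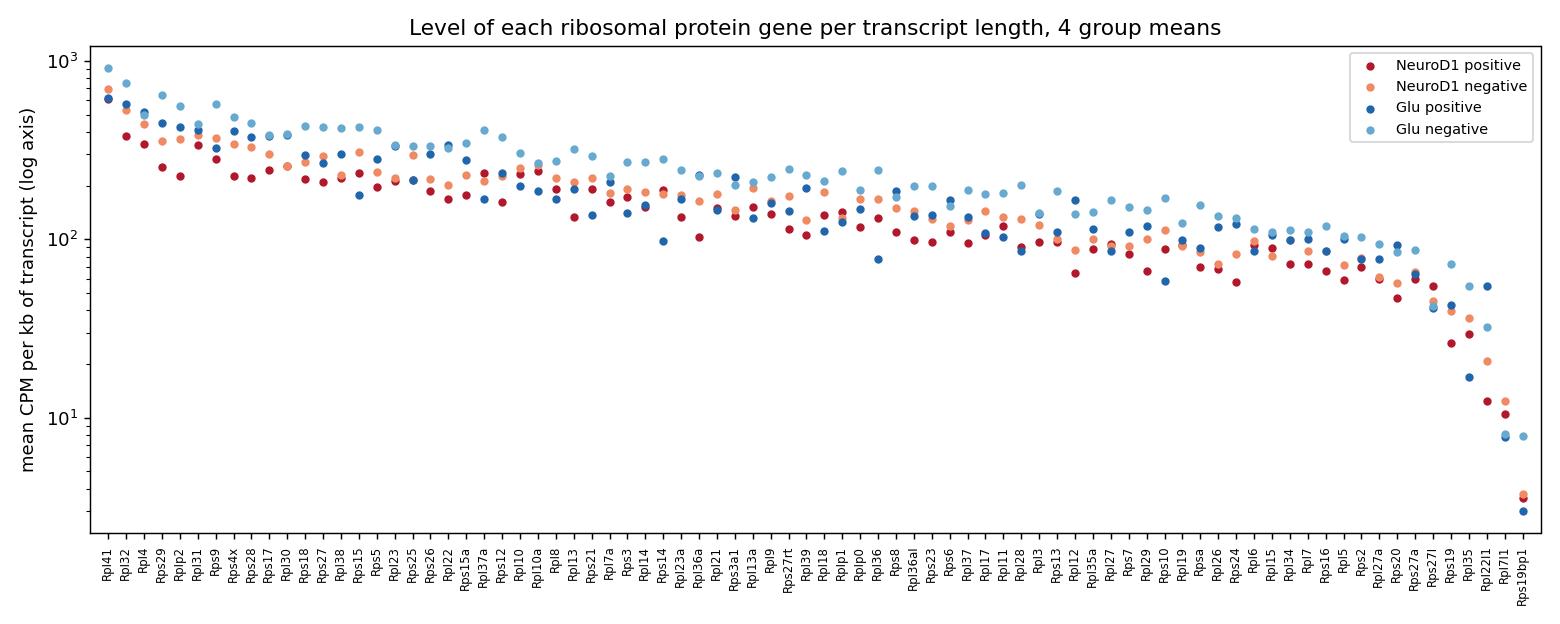
Mean level of 80 of the 82 genes in CPM per kilobase of transcript (log axis) in the 4 groups, ordered by the mean over groups, with 1 point per group mean. Over all 82 genes the Glu-negative mean is highest for 71 and the NeuroD1-positive mean lowest for 56.

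Taken as a share of all counts, ribosomal protein genes were a small part of each library. They took 0.907%, 0.681% and 0.610% in NeuroD1_positive_6360, NeuroD1_positive_6361 and NeuroD1_positive_6362, and 1.52%, 1.21% and 0.620% in the NeuroD1-negative libraries of those numbers. In Glu_positive_5254, Glu_positive_5160 and Glu_positive_4665 the share was 1.17%, 0.940% and 1.42%, and in Glu_negative_5254 and Glu_negative_4665 it was 2.21% and 1.79%. The Glu groups did not overlap and the NeuroD1 groups did. With mitochondrial ribosomal RNA left out of the totals, the NeuroD1-positive shares became 1.27%, 0.974% and 0.842% and the NeuroD1-negative shares 1.52%, 1.80% and 0.939%, and the Glu shares did not move. Wilson intervals (95%, counting error only) of these shares were at most 0.0304 percentage points wide, far narrower than the spread between libraries. The small-subunit part of the members' counts stayed within 36.8% to 42.3% in all 11 libraries.

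After scaling by the trimmed mean of M-values (TMM), the members' levels summed to 8940 ± 1492 CPM in NeuroD1-positive libraries (SD, n = 3) and 10974 ± 3190 in NeuroD1-negative libraries (SD, n = 3). The sum was 11463 ± 2689 CPM in Glu-positive (SD, n = 3) and 15365 ± 3047 CPM in Glu-negative libraries (SD, n = 2). Ranges of all neighbouring groups in this order overlapped, from 7396 to 10374, 7512 to 13795, 8731 to 14108 and 13211 to 17520 CPM. The group mean was highest in Glu-negative cells for 71 members, in Glu-positive cells for 9, in NeuroD1-positive cells for 1 and in NeuroD1-negative cells for 1. It was lowest in NeuroD1-positive cells for 56, in Glu-positive cells for 23 and in NeuroD1-negative cells for 3.

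Single libraries stood apart within their groups. NeuroD1_negative_6362 had the lowest value of 23 members, NeuroD1_positive_6362 of 29 and Glu_positive_5160 of 20, while Glu_negative_5254 had the highest value of 51. Around a library's median deviation, the SD of the members' deviations was 0.20 to 0.33 on the log2 scale in 9 of the 11, but 0.62 in Glu_positive_5254 and 0.41 in Glu_positive_5160. Glu_positive_5254 had the highest value of 22 members and the lowest value of 4.

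**Figure D2:**
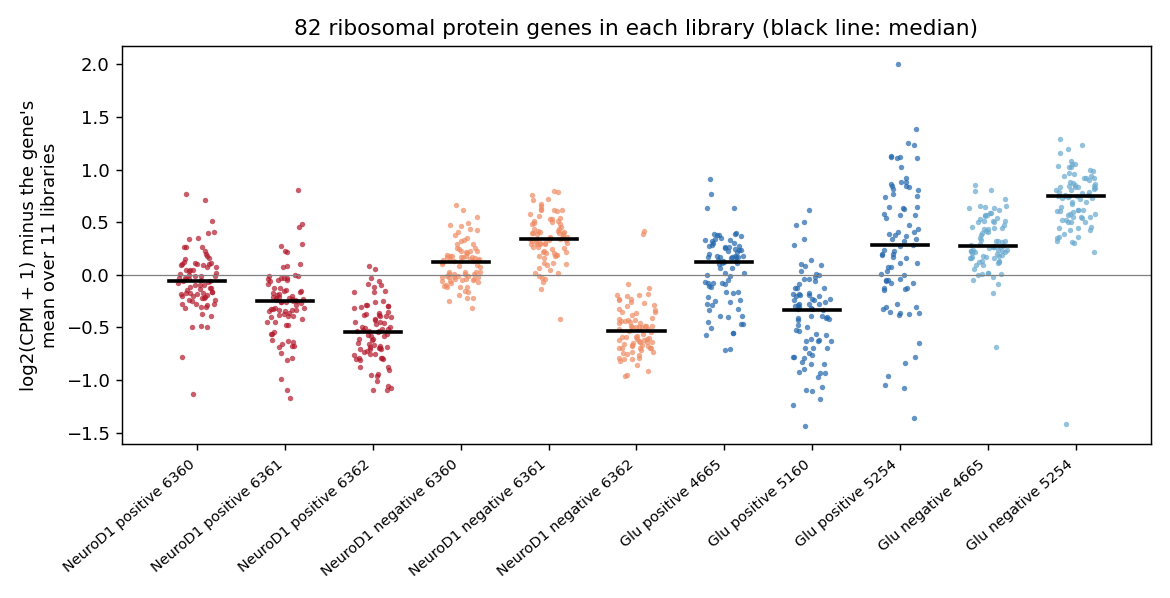
Each point is 1 of 82 genes in 1 of 11 libraries, as log2(CPM + 1) minus that gene's mean over the libraries, with the library's median as a black line. Medians run from -0.54 in NeuroD1_positive_6362 to 0.75 in Glu_negative_5254, and points are most spread (SD 0.62) in Glu_positive_5254.

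Between NeuroD1-positive and NeuroD1-negative cells, no ribosomal protein gene passed the test. By edgeR's quasi-likelihood test with Benjamini-Hochberg adjustment at 0.05 over 14332 genes, 0 of 82 were higher and 0 lower, where the background of all genes called was 6.57% higher and 7.61% lower. At an unadjusted p under 0.05 the count was 1, by DESeq2 it was 1 after adjustment, and by limma voom it was 0. Fitted changes lay below 0 for 74 members, with a median of -0.28 against 0.02 over all genes tested. Without NeuroD1_negative_6361 the median was -0.10 with 56 members below 0, without NeuroD1_positive_6362 it was -0.16 with 62 below 0, and without NeuroD1_negative_6362 it was -0.49 with 80 below 0. The small-subunit median was -0.35 (n = 31) and the large-subunit median -0.25 (n = 42). Groups without overlap, negative cells higher, were found for 1 member, where the background was 17.2%.

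Between Glu-positive and Glu-negative cells, most fitted differences of the members lay below 0, and 3 genes passed the test. Rps10, Rps14 and Rpl36 fell, and 0 rose, by edgeR's quasi-likelihood test. The background of all genes called was 2.41% lower and 4.22% higher, so 3 of 82 is near it. Fitted changes lay below 0 for 73 members, with a median of -0.47 against 0.12 over all genes. Without Glu_negative_5254 the median was -0.23 with 57 members below 0, and without Glu_positive_5160 it was -0.30 with 59 below 0. With upper-quartile factors, which moved the median of all genes to -0.10, the members' median was -0.75. Relative to the median of all genes the members' median was -0.59 with TMM and -0.64 with upper-quartile factors. Groups without overlap, negative cells higher, were found for 30 members, and the reverse for 0, against a background of 16.5% and 15.8%.

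Rps10 encodes a small-subunit protein (chromosome 17, GRCm38, 27630418 to 27636669). It stood at 38.2, 35.5 and 50.6 CPM in Glu_positive_5254, Glu_positive_5160 and Glu_positive_4665 and at 136 and 105 CPM in Glu_negative_5254 and Glu_negative_4665. The groups lay far apart, with NeuroD1-positive cells between at 72.3, 64.5 and 51.9 CPM and NeuroD1-negative cells at 79.5, 102 and 58.5 CPM. The log2 change was -1.54 ± 0.38 (SE, adjusted p = 0.0214, edgeR's quasi-likelihood test). Its call was lost without either Glu-negative library, at adjusted p-values up to 0.232 over all alternatives, while the fitted change stayed between -1.83 and -1.33.

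Rps14 encodes a small-subunit protein near the decoding platform, and lies on chromosome 18 (GRCm38, 60747098 to 60778546). Its level was 74.6, 34.8 and 65.4 CPM in Glu_positive_5254, Glu_positive_5160 and Glu_positive_4665 and 166 and 169 CPM in Glu_negative_5254 and Glu_negative_4665. The Glu-negative pair was nearly equal, and NeuroD1-positive cells at 158, 101 and 78.0 CPM overlapped NeuroD1-negative cells at 112, 144 and 66.8 CPM. The log2 change in the Glu strain was -1.52 ± 0.42 (SE, adjusted p = 0.0373, edgeR's quasi-likelihood test). That call was lost on leaving out Glu_positive_5160, either Glu-negative library, NeuroD1_positive_6361 or NeuroD1_negative_6360, with adjusted p up to 0.215 and a change of -1.73 to -1.24.

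Rpl36, a large-subunit gene (chromosome 17, GRCm38, 56613416 to 56614243), has the highest GC content of the members, at 60.8% of its transcript. It stood at 31.6, 27.2 and 30.1 CPM in Glu_positive_5254, Glu_positive_5160 and Glu_positive_4665 and at 116 and 71.2 CPM in Glu_negative_5254 and Glu_negative_4665. Its 3 Glu-positive values were close to each other and to the 30.9 CPM and 29.7 CPM of NeuroD1_positive_6362 and NeuroD1_negative_6362. The other NeuroD1 libraries were higher, at 58.8 and 60.7 CPM in NeuroD1_positive_6360 and NeuroD1_positive_6361. NeuroD1_negative_6360 and NeuroD1_negative_6361 stood at 76.8 and 87.4 CPM. The log2 change was -1.66 ± 0.47 (SE, adjusted p = 0.0421, edgeR's quasi-likelihood test). Leaving out any library but NeuroD1_positive_6362, NeuroD1_negative_6362 or Glu_positive_5254 ended this call, with adjusted p up to 0.356. Pseudogene copies named for Rpl36 held 11.6% as many counts as the gene, the largest such share of any member.

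Rpl35, a large-subunit protein near the exit tunnel, had the lowest fitted change at -1.69 ± 0.53 (SE) but did not pass (adjusted p = 0.0617, edgeR's quasi-likelihood test). Its values were 10.01, 13.4 and 24.2 CPM in Glu_positive_5254, Glu_positive_5160 and Glu_positive_4665 and 57.7 and 45.7 CPM in Glu_negative_5254 and Glu_negative_4665. How many members were called rested on single libraries: without Glu_positive_5254 there were 8, Rpl28, Rpl36, Rpl37a, Rps10, Rps14, Rps15 and Rps21 among them, and without either Glu-negative library there were 0. Without Glu_positive_5160, NeuroD1_positive_6361 or NeuroD1_negative_6360 there was 1. Numbers of members called lower were also 9 with upper-quartile factors, 5 with DESeq2 and 5 with limma voom, and 0 when the fit used the Glu libraries alone.

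**Figure D3:**
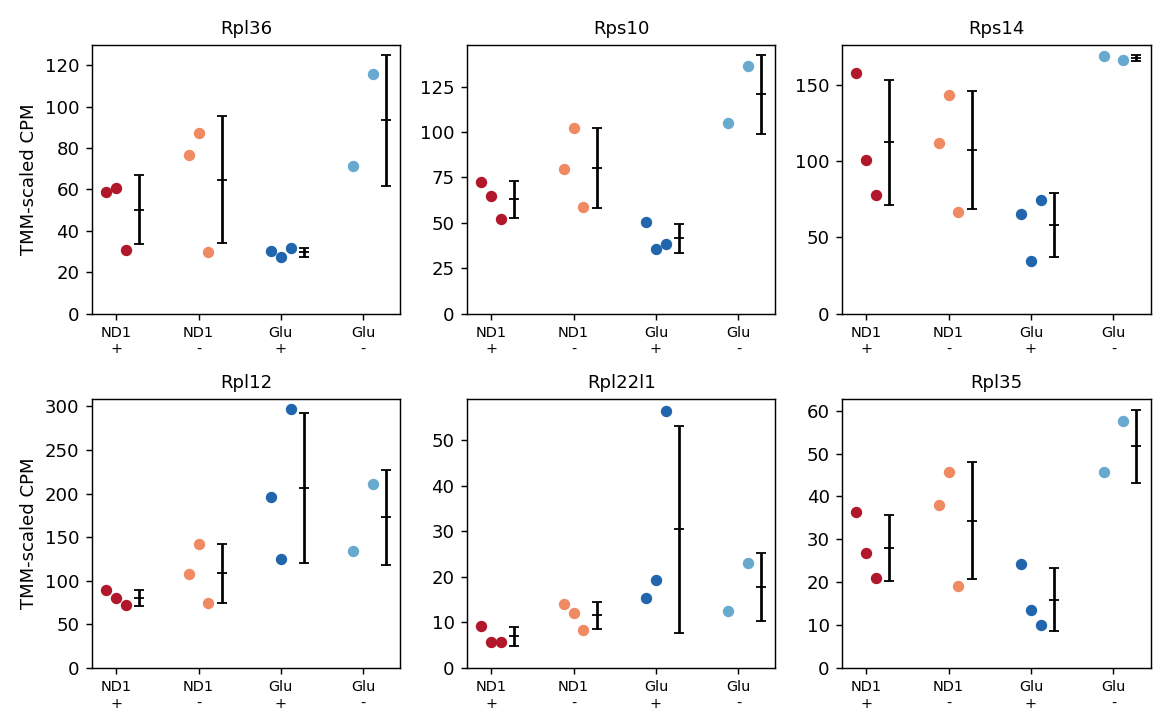
TMM-scaled CPM of 6 genes by library (ND1, NeuroD1 strain, + positive and - negative cells), with the mean and SD of each group as black bars. Rps10, Rps14, Rpl36 and Rpl35 lie lower in the 3 Glu-positive than in the 2 Glu-negative libraries, and Rpl12 and Rpl22l1 lie lower in the 3 NeuroD1-positive than in the 3 Glu-positive libraries.

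Within the Glu strain, the fitted difference of a member ran with the GC content of its transcript. Over the 82 members, Spearman's rho between GC and the log2 change was -0.51 and Pearson's r was -0.56. Over all 13007 tested genes with a transcript rho was -0.24, and over 4259 genes at the members' level it was -0.30. These genes share libraries and depth and are not independent, so no p is given. The 20 members of lowest GC (40.6% to 48.4%) had a median change of -0.08, and the 20 of highest GC (54.8% to 60.8%) had -0.77. Genes of all kinds at the members' level moved the same way, from 0.64 at or under the lower limit to -0.04 at or over the upper one.

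In the NeuroD1 strain rho over the members was -0.00. For NeuroD1-positive against Glu-positive cells it was 0.37, and 0.33 over genes at the members' level. Between negative cells rho over the members was -0.06, and for the interaction of strain and reporter 0.46. The contrast of positive cells and the interaction use the same Glu-positive libraries as the Glu change. Library by library, the deviation of a member's level went down with GC in the 3 Glu-positive libraries (rho -0.47 in Glu_positive_5254, -0.19 in Glu_positive_5160 and -0.18 in Glu_positive_4665) and up in the other 8 (0.09 to 0.30). Deviations are taken from each gene's mean over the 11 libraries, so a fall in some libraries brings a rise in others. Leaving out Glu_positive_5254 moved rho for the Glu change from -0.51 to -0.34. The part of GC in the 3 calls, and in the calls between positive cells below, was not tested.

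**Figure D4:**
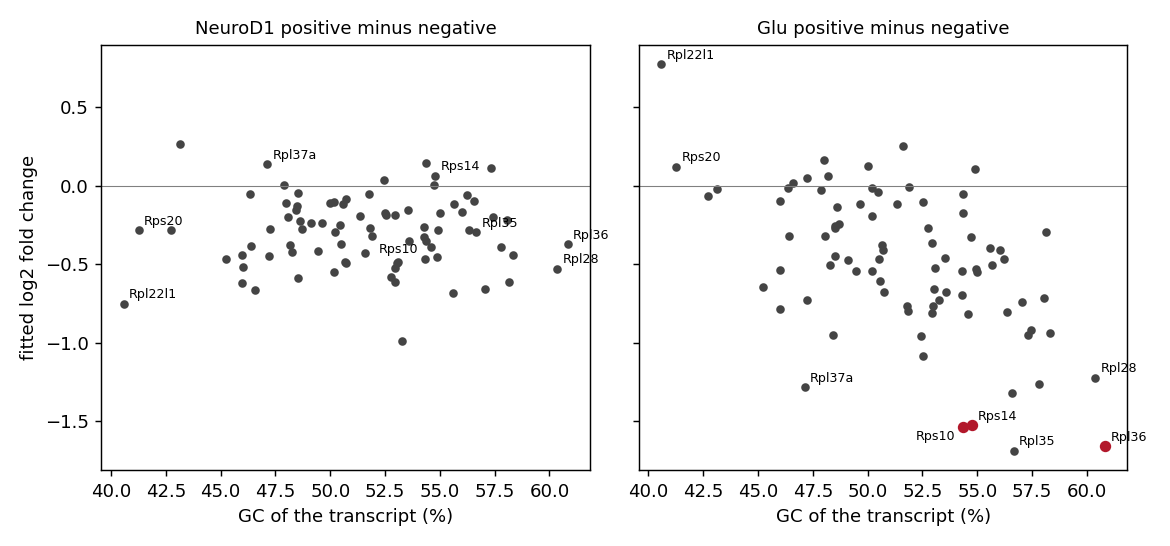
Fitted log2 fold change, positive minus negative cells, of 82 genes against the GC percent of their transcript in the NeuroD1 strain (left) and the Glu strain (right). Called genes are red; rho is -0.00 on the left and -0.51 on the right.

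NeuroD1-positive cells were compared with Glu-positive cells to set the broad endocrine sort against the proglucagon sort. 2 members, Rpl12 and Rpl22l1, were lower in NeuroD1-positive cells and 0 were higher by edgeR's quasi-likelihood test, where the background of all genes was 4.95% lower and 3.18% higher. The median over the members was -0.37 against -0.14 for all genes, and 59 fitted changes lay below 0. Without Glu_positive_5254 the median was -0.20 against -0.07 for all genes, with 50 members below 0. Without NeuroD1_positive_6362 it was -0.24 against -0.20 for all genes, also with 50 below 0. Relative to the median of all genes it then stood at only -0.04. For 19 members the NeuroD1-positive values lay under all Glu-positive values, and for 2 above them (Rps10 and Rps14), beside a background of 12.2% and 11.4%. This contrast uses the Glu-positive libraries of the comparison above and is not independent of it. Strain and a difference in counting cannot be told apart here.

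Rpl12 encodes a large-subunit protein at the base of the stalk (chromosome 2, GRCm38, 32961559 to 32965345). It stood at 89.6, 80.1 and 71.6 CPM in NeuroD1_positive_6360, NeuroD1_positive_6361 and NeuroD1_positive_6362 and at 297, 125 and 196 CPM in Glu_positive_5254, Glu_positive_5160 and Glu_positive_4665. The positive groups did not overlap, while NeuroD1-negative values of 108, 143 and 74.7 CPM overlapped Glu-negative values of 211 and 134 CPM. The log2 difference was -1.36 ± 0.37 (SE, adjusted p = 0.0280, edgeR's quasi-likelihood test). The call was lost on leaving out any NeuroD1-positive library or Glu_positive_5254, with adjusted p up to 0.110 and a difference no nearer 0 than -1.001.

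Rpl22l1 is a paralog of the large-subunit gene Rpl22 (chromosome 3, GRCm38, 28805436 to 28807424), and of all members it has the lowest transcript GC (40.6%) and the widest range over libraries, 9.86-fold. It stood at 9.18, 5.72 and 5.72 CPM in NeuroD1_positive_6360, NeuroD1_positive_6361 and NeuroD1_positive_6362 and at 56.4, 19.3 and 15.4 CPM in Glu_positive_5254, Glu_positive_5160 and Glu_positive_4665. The highest of these, Glu_positive_5254, was far above the other Glu-positive values. The log2 difference was -2.14 ± 0.61 (SE, adjusted p = 0.0360, edgeR's quasi-likelihood test), and without Glu_positive_5254 it was -1.33. That call was also lost without any NeuroD1-positive library, NeuroD1_negative_6360 or NeuroD1_negative_6361.

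Counts of members called lower in this contrast rested on single libraries too. They were 0 without any one NeuroD1-positive library and 5 without Glu_positive_5160. Without NeuroD1_negative_6360 or NeuroD1_negative_6361 the count was 1, Rpl12. It was also 1 without Glu_positive_5254, but that gene was neither Rpl12 nor Rpl22l1.

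**Figure D5:**
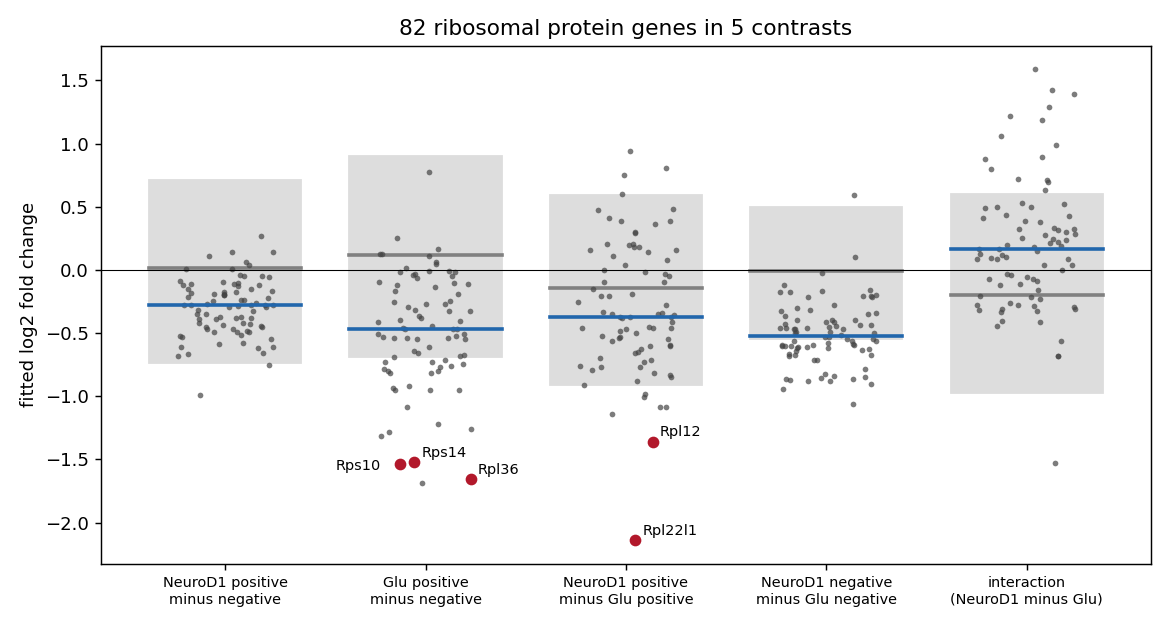
Fitted log2 fold change of 82 genes (points, called genes red) in 5 contrasts, with the members' median as a blue line and the quartiles and median of all 14332 genes tested as grey boxes and lines. Members' medians are -0.28, -0.47, -0.37, -0.52 and 0.17 from left to right.

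Between the negative cells of the strains no member was called. By edgeR's quasi-likelihood test 0 were higher and 0 lower, beside a background of 0.363% and 0.126%, with 5 at an unadjusted p under 0.05 and 0 by DESeq2 and limma voom. Fitted changes lay below 0 for 80 of 82, with a median of -0.52 against -0.01 for all genes, and the NeuroD1-negative values lay under both Glu-negative values for 29 members (background 16.5%). That median was -0.30 without NeuroD1_negative_6362 and -0.33 without Glu_negative_5254. The effect of sorting was not shown to differ between the strains for any member: the interaction called 0, beside a background of 0.0907% higher and 0.0209% lower, with a smallest adjusted p of 0.307 by edgeR's quasi-likelihood test and 3 members at an unadjusted p under 0.05. DESeq2 and limma voom also called 0. The interaction's median was 0.17 over the members and -0.20 over all genes. The members' median turned to -0.11 without Glu_negative_5254 and -0.05 without NeuroD1_negative_6362, where all genes had -0.28 and -0.17. It came to 0.00 without NeuroD1_positive_6360 and to 0.01 without Glu_positive_5160, and reached 0.29 without NeuroD1_positive_6362, 0.31 without Glu_positive_5254, 0.34 without NeuroD1_negative_6361 and 0.41 without Glu_negative_4665.

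On this transcript scale, mean levels of paralogs lay below those of their parents in all 4 groups. Over the union of exons the order turned for 2 of them: Rps27rt stood at 171 against 98.9 CPM per kilobase for Rps27, and Rpl36al at 56.1 against 52.7 for Rpl36a, as means of the groups. Rpl22l1 stood at 12.5, 20.8, 55.0 and 32.1 CPM per kilobase in positive and negative NeuroD1 cells and then positive and negative Glu cells, against 168, 203, 337 and 326 for Rpl22. Rps27l, a p53-responsive relative of Rps27, stood at 54.4, 45.2, 41.4 and 42.2 against 209, 293, 267 and 427, and its mean was highest in NeuroD1-positive cells. Rps27rt, a retrocopy, stood at 114, 175, 145 and 249 and may take reads of Rps27, or give them. Rpl36al stood at 98.9, 144, 136 and 198 against 104, 164, 228 and 226 for Rpl36a. Rpl7l1 was lower still, at 10.5, 12.4, 7.8 and 8.1 against 73.0, 86.1, 101 and 109 for Rpl7. None of these 5 except Rpl22l1 passed a test in any contrast.

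The stalk recruits the elongation factors, and its proteins are encoded by Rplp0, Rplp1 and Rplp2. Per kilobase, Rplp2 stood at 226, 363, 425 and 559 CPM in the order above, Rplp0 at 117, 168, 148 and 190, and Rplp1 at 143, 132, 126 and 242. No stalk gene passed a test. Rps27a, which is made as a fusion with ubiquitin, stood at 60.0, 65.5, 64.0 and 87.2 CPM per kilobase. Fau and Rack1, subunit genes that the symbol rule misses, were not called in any contrast. Fau had a Glu-positive level of 38.5 ± 3.17 CPM (SD, n = 3) and a Glu-negative level of 86.4 ± 1.55 CPM (SD, n = 2), with an adjusted p of 0.0730 by edgeR's quasi-likelihood test.

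Across the rest of the translation machinery, few genes were called. Of 27 initiation factors, 0 passed edgeR's quasi-likelihood test in any contrast, with 0 to 7 at an unadjusted p under 0.05, and their medians were 0.07 in the NeuroD1 strain and 0.08 in the Glu strain. Among 31 ribosome assembly genes, 1 rose in NeuroD1-positive against NeuroD1-negative cells (Wdr12), and 2 were lower in NeuroD1-positive than in Glu-positive cells. Over all genes 6.57% and 4.95% were called in those directions, so neither count stands out from the background. Wdr12 stood at 7.71, 35.5 and 6.15 CPM in NeuroD1_positive_6360, NeuroD1_positive_6361 and NeuroD1_positive_6362 against 1.06, 4.02 and 2.62 CPM in the negative libraries of those numbers, and its call was lost without NeuroD1_positive_6361, any NeuroD1-negative or any Glu-negative library. The pair between positive cells was Npm1 and Ncl, nucleolar proteins that help to build ribosomes. Npm1 stood at 273, 333 and 295 CPM in NeuroD1_positive_6360, NeuroD1_positive_6361 and NeuroD1_positive_6362 and at 1304, 593 and 605 CPM in Glu_positive_5254, Glu_positive_5160 and Glu_positive_4665, a log2 difference of -1.47 ± 0.34 (SE, adjusted p = 0.0115, edgeR's quasi-likelihood test). Ncl stood at 380, 354 and 375 CPM against 1140, 535 and 688 CPM in the same order, a difference of -1.09 ± 0.31 (SE, adjusted p = 0.0342, the same test). Npm1's call was lost without NeuroD1_positive_6360 or NeuroD1_positive_6362, and Ncl's without any NeuroD1-positive library, NeuroD1_negative_6360 or Glu_positive_5254.

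Myc, a transcription factor that drives ribosome production, was the 1 gene called of 12 tested regulators and companions of pyrimidine-tract mRNAs, in a contrast where 4.95% of all genes were called lower. It stood at 44.4, 56.5 and 41.1 CPM in NeuroD1_positive_6360, NeuroD1_positive_6361 and NeuroD1_positive_6362 and at 290.05, 86.1 and 140.1 CPM in Glu_positive_5254, Glu_positive_5160 and Glu_positive_4665, a log2 difference of -1.86 ± 0.44 (SE, adjusted p = 0.0135, edgeR's quasi-likelihood test). The call was lost without NeuroD1_positive_6360 or NeuroD1_positive_6362 or Glu_positive_5254, where the difference was -1.26. Larp1 and Mtor were in this list and were not called.

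Of 77 mitochondrial ribosomal protein genes, which serve the separate ribosome of the mitochondrion, Mrpl39 rose in Glu-positive against Glu-negative cells, and Mrps25 and Mrpl9 were lower in NeuroD1-positive than in Glu-positive cells. Mrpl39 stood at 61.3, 50.6 and 49.4 CPM in Glu_positive_5254, Glu_positive_5160 and Glu_positive_4665 and at 11.7 and 15.1 CPM in Glu_negative_5254 and Glu_negative_4665, a log2 change of 2.00 ± 0.50 (SE, adjusted p = 0.0224, edgeR's quasi-likelihood test). Calls of 1 and 2 genes of 77 lie below the background of 4.22% and 4.95%. The call of Mrpl39 was lost without either Glu-negative library. Mrpl9 stood at 13.6, 5.72 and 4.66 CPM in the 3 NeuroD1-positive libraries against 92.5, 30.3 and 28.6 CPM in the 3 Glu-positive ones, and its call was lost without NeuroD1_positive_6361 or NeuroD1_positive_6362. Mrps25 stood at 47.0, 45.0 and 63.2 CPM against 223, 112 and 77.2 CPM, and only NeuroD1_negative_6361, Glu_positive_5160 or Glu_positive_4665 could be left out without losing its call. Of 9 elongation and release factors, 1 was called higher in both NeuroD1 groups than in the matching Glu group. Over all genes, 3.18% were called higher between positive cells and 0.363% between negative cells. The gene was Eef1a2, the elongation factor form of muscle and neurons, with adjusted p-values of 0.00548 and 0.0394 (edgeR's quasi-likelihood test). It stood at 2.94, 3.43 and 6.99 CPM in the 3 NeuroD1-positive libraries and 6.17, 7.53 and 6.11 CPM in NeuroD1_negative_6360, NeuroD1_negative_6361 and NeuroD1_negative_6362, and had 0 counts in all 5 Glu libraries, which allows up to 0.420 to 1.03 CPM (3 counts in a library, counting error only). Because positive and negative NeuroD1 cells both held it, strain and a difference in counting cannot be told apart for this gene.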

How the data were processed

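Sorted duodenal cells gave 2 ng of RNA per library, which was amplified and sequenced, per the labels' protocols. CASAVA, TopHat2 (2.1.0) and Cufflinks (2.2.1) with GRCm38 appear in the submitters' processing notes. The counter, annotation release and strand setting were not given in the sources used here. Estimated counts, with no normalization, were deposited by the authors for 38283 genes, and they were rounded here to whole numbers. Symbols came from GENCODE vM21 (36425 genes matched). Overlapping genes, antisense pairs and copies may share reads. The 234 named pseudogenes of members, 141 with a count, held 0.298% to 0.888% as many counts as the members. Copies were found by symbol only, so any copies under other names are not in this share.

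Counts were tested with edgeR 4.0.16 under R 4.3.3: filterByExpr (14332 genes, all 82 members), TMM, 4 group means fitted over 11 libraries by quasi-likelihood, Benjamini-Hochberg adjustment at 0.05. SE is the log2 change over the square root of F. DESeq2 1.42.0 and limma 3.58.1 voom were alternatives. The procedure was tested on a single simulated data set per contrast. Almost none of the smallest changes was called, so counts of 0 do not show that levels were equal. In both contrasts between strains false calls were more frequent there than the threshold allows. A single data set cannot show whether that excess is general, and calls between strains are taken as less certain.

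The members, lists and groupings were chosen with earlier results of these data known. The named genes were called members, paralogs with parents, extremes per kilobase, stalk genes, Rps27a, members nearest the count threshold and those of widest range, and called genes of other lists. Chosen after the fits were seen were the GC description, the use of 1 transcript per gene for length, the promoter motifs and windows, the division by role, and giving fold changes only for called genes and Rpl35, which is narrower than the rule; fitted changes of 11 to 42 members per contrast turned sign in some alternative. Some genes are not reported here, and counts of genes still include them. Replicate numbers were not used to pair libraries in the main fit (closing section).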

Additional observations from a re-analysis of the deposited data

How the results depend on the processing

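Across 23 alternatives no fitted change given for a gene turned sign. Members called lower in Glu-positive against Glu-negative cells (3) became 9 with upper-quartile factors, 7 with library totals, 5 without a filter, 6 with a stricter filter, 5 with DESeq2, 5 with limma voom, 0 with the Glu groups alone and 0 with a replicate block; leaving out 1 library gave 0 to 8. The median there was -0.82 with library totals. Members lower in NeuroD1-positive against Glu-positive cells (2) became 1 with upper-quartile factors, 7 with library totals, 4 with DESeq2, 1 with limma voom and 0 with the groups alone; leaving out 1 library gave 0 to 5. In the NeuroD1 strain the count of 0 became 1 with upper-quartile factors, library totals, DESeq2 and the groups alone, and 0 to 1 on leaving out a library. The NeuroD1-positive share of counts rose from 0.733% to 1.03% without mitochondrial ribosomal RNA. Of the comparisons between single genes and settings, 214 kept their side of the threshold, 74 lost the call and 4 gained it. Why counts changed was not tested.

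Medians kept their sign under every scaling. On leaving out 1 library they ranged from -0.49 to -0.10 in the NeuroD1 strain and -0.69 to -0.23 in the Glu strain. They ranged from -0.52 to -0.20 between positive cells and -0.73 to -0.30 between negative cells. The interaction's ranged from -0.11 to 0.41 and changed sign. Relative to the median of all genes, the interaction's stayed at 0.12 to 0.71. The one between positive cells came to -0.04 without NeuroD1_positive_6362. Same-numbered libraries correlated at 0.0098 to 0.0459 in their deviations, and differently numbered ones at -0.0415 to 0.0201. Such values from groups of 2 or 3 libraries cannot show whether the numbers mark pairs, and the main fit does not treat them as pairs. With the replicate block the Glu median was -0.33 and 0 members were called there. Contrasts between strains share no numbers and have no such fit, and the interaction has no fit on the compared groups alone. Groups of 2 or 3 libraries limit what can be called, and members near 5 CPM, such as Rps19bp1, rest on few counts. The GC correlations in other settings were computed after seeing the data.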
